A study of Mus musculus with 2 samples.

Results

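The type I interferon antiviral effectors are the genes whose products block viral entry, translation, replication or release in cells that have sensed interferon. A list of 35 of them was taken by gene symbol from the deposited expression tables, which hold 16263 genes, and all 35 had a row in both tables. In this pair of macrophage libraries they were abundant transcripts, some lower and some level, often within one family. The IFIT genes, Oasl1, Oas1g, Usp18, Rsad2, Cmpk2 and Isg20 were lower by at least 1.5-fold in the library labelled SIRPα-KO than in the WT library, although Oas1g was not when summed with its near copy Oas1a. The PARP genes with Dtx3l, the RNA kinase gene Eif2ak2 and Adar, Samhd1 and Ifitm2 were level or somewhat higher.

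The cells were bone marrow-derived macrophages of mice labelled as knockouts of SIRPα (genotype SIRPalpha-/-) and of wild-type mice, both C57BL/6. Marrow cells had grown for 5 days in medium with M-CSF. All of them then received 20 ng/ml interferon-γ plus 100 ng/ml lipopolysaccharide (LPS) for 6 h, so neither group was unstimulated, and mCD47.ex, a reagent named in the labels, was present. Each RNA sample came from the mixed cells of 5 mice, which leaves 1 library per genotype, no replicate error and no test.

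Type I interferons bind the receptor made of Ifnar1 and Ifnar2, and the kinases Jak1 and Tyk2 then activate a transcription factor complex that contains Stat2 and Irf9. This complex binds a DNA element called the interferon-stimulated response element (ISRE). LPS induces interferon-β in macrophages through Tlr4 and Irf3, and Irf3 can also switch on some of the same genes directly. Interferon-γ uses another receptor and acts mainly through a different DNA element (GAS), and it induces many of these genes as well. 

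Values are FPKM, that is fragments per kilobase, scaled to the depth of each library, a unit inferred from the values. Ratios are given as log2 of SIRPα-KO label over WT after adding 1 to each value. The libraries held an estimated 11000000 reads (SIRPα-KO label) and 11100000 reads (WT), as read from the steps between low values. Sirpa itself was at 71.5 FPKM in the library labelled SIRPα-KO and 153.9 FPKM in WT, so its transcript was still present under the knockout label. Xist was at 0.91 FPKM in the library labelled SIRPα-KO and 47.5 in WT, and the Y-linked genes Eif2s3y and Ddx3y were at 21.4 and 11.6 FPKM in the library labelled SIRPα-KO and at 0 in WT. Genotype and the sex of the pooled mice cannot be told apart.

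Every member passed the filter of 1 FPKM in at least 1 library. Member levels ran from 68.7 to 1720 FPKM with a median of 292 in the library labelled SIRPα-KO, and from 77.3 to 2647 FPKM with a median of 340 in WT. The members summed to 16697 FPKM in the library labelled SIRPα-KO and 21058 FPKM in WT, which was 3.85% (SIRPα-KO label) and 4.74% (WT) of the library's total. The lowest member ranked 1063 of 10092 rows kept in the library labelled SIRPα-KO and 968 in WT, so the whole list lay near the top of both libraries. The marker genes of the response were among the highest: Isg15 was at 1212 FPKM in the library labelled SIRPα-KO and 1582 in WT, Mx1 at 793 (SIRPα-KO label) and 769 (WT), and Ifit1 at 548 (SIRPα-KO label) and 872 (WT). Each of these was far above the median row in both pools.

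**Figure D1:**
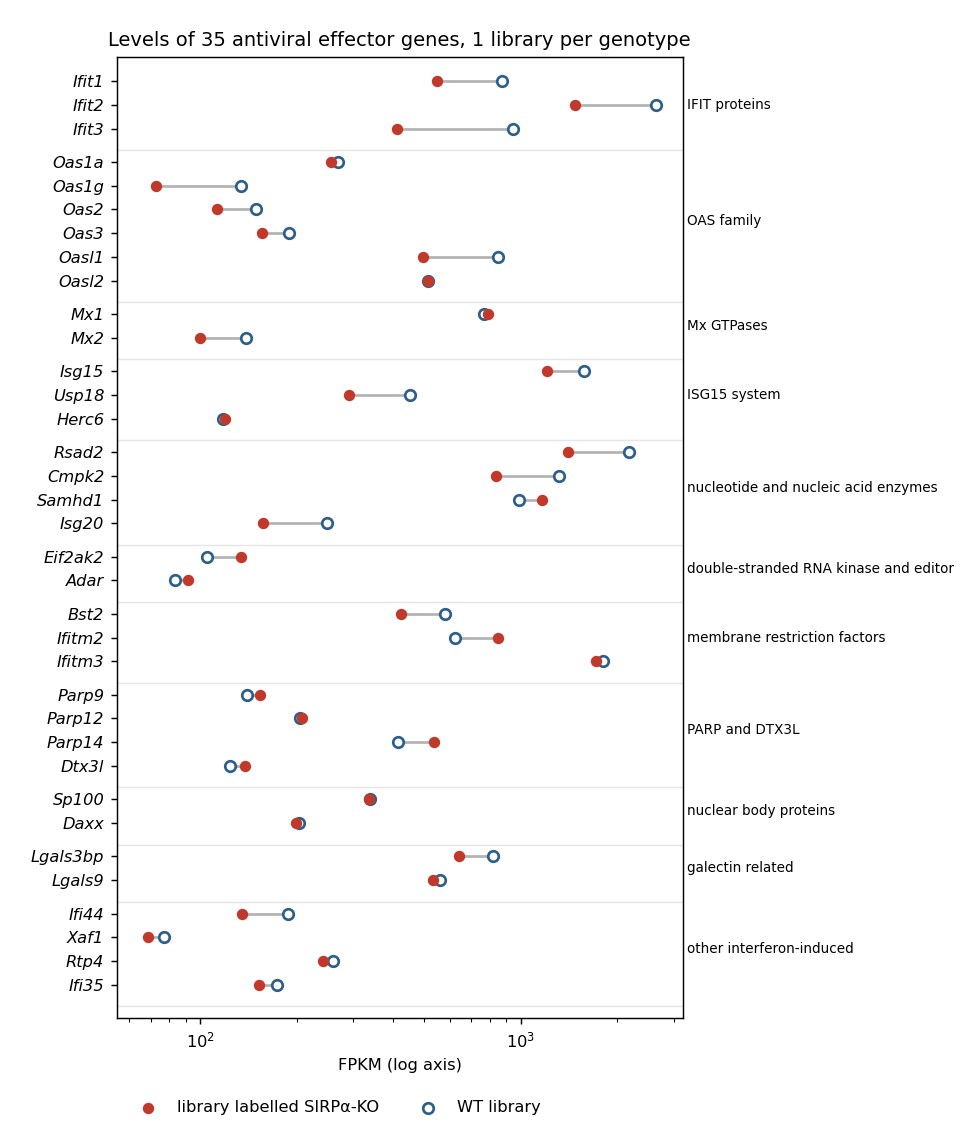
Levels of the 35 members in FPKM on a log axis, with filled circles for the library labelled SIRPα-KO, open circles for the WT library, and genes grouped by role; a line joins the 2 values of a gene. Ifit3 has the widest gap, at 411 FPKM (SIRPα-KO label) and 946 FPKM (WT), and Oasl2 and Sp100 have almost none.

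Of the 35 members, 0 were higher and 1 was lower by at least 2-fold in the library labelled SIRPα-KO, where 3.43% of the 10092 rows kept were higher and 4.3% lower. Among the 1018 rows at least as abundant on average as the lowest member, a set defined after seeing the data, 2.46% were higher and 6.09% lower by 2-fold. At 1.5-fold, 0 members were higher, against 10.9% of rows kept. At the same limit 9 members (25.7%) were lower, against 10.2% of rows kept. Among the equally abundant rows, 12.4% were lower by 1.5-fold and 8.25% higher. The median log2 ratio of the members was -0.17, against 0.06 for all rows kept and 0.02 for the equally abundant rows. Counting any difference, 24 members were lower in the library labelled SIRPα-KO and 11 higher, where 43.8% of rows kept were lower and 56.1% higher. Among equally abundant rows 47.3% were lower and 52.7% higher. Without the IFIT genes, 6 of 32 members (18.75%) were lower by 1.5-fold and the median was -0.09.

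Counting error of the members was small at this depth. Oas1g, which had the fewest reads of any member with an estimate in the library labelled SIRPα-KO, had an estimated 1578 reads there and 2945 in WT, for an error of 0.05 on the log2 scale. For Ifit2 the counting error was 0.01. Neither figure covers differences between mice, cultures or library preparations.

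**Figure D2:**
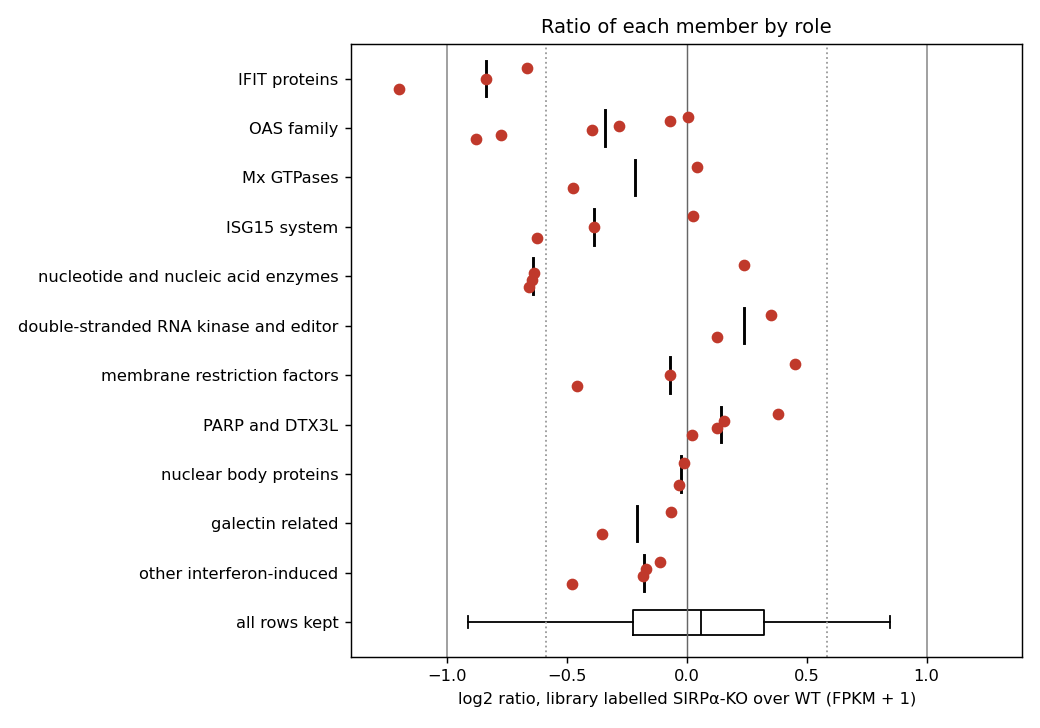
Log2 ratio of each member (SIRPα-KO label over WT, FPKM + 1) by role, with a black bar at each group's median; the box at the bottom shows all rows kept (quartiles, whiskers at the 5th and 95th percentiles), dotted lines mark 1.5-fold and solid lines 2-fold. The IFIT proteins lie left of the dotted line at -0.67 to -1.20, and the PARP genes with Dtx3l lie between 0.02 and 0.38.

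The IFIT proteins bind viral RNA and keep it from the translation machinery. Ifit2 was at 1483 FPKM in the library labelled SIRPα-KO and 2647 in WT, and it was the most abundant member in WT. Ifit1, which recognises RNA whose cap lacks methylation, was at 548 FPKM in the library labelled SIRPα-KO and 872 in WT. Ifit3, a partner of the other two, was at 411 FPKM in the library labelled SIRPα-KO and 946 in WT. All 3 were lower by at least 1.5-fold, with log2 ratios of -0.67 (Ifit1), -0.84 (Ifit2) and -1.20 (Ifit3), and the family's summed level was 2443 FPKM against 4465 in WT. Ifit3 was the member past 2-fold, at 2.30-fold lower.

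Ifit3 has a close copy, I830012O16Rik (Ifit3b in RefSeq), which holds 51.2% of its 50-base words, so reads can be assigned to either. The copy was at 32.5 FPKM in the library labelled SIRPα-KO and 101.9 in WT, a log2 ratio of -1.62. Summed, the pair was at 443.9 FPKM in the library labelled SIRPα-KO and 1048 in WT, a log2 ratio of -1.24, so the lower level remained when both copies were counted together. Ifit1 shares 7.06% of its words with 2010002M12Rik (Ifit1bl2), which was at 1.2 FPKM in the library labelled SIRPα-KO and 1.36 in WT. Ifit2 shared none.

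The promoters of these genes are shown because 3 rows of the cluster that were lower carry the same element. The lines give the 200 bases before the annotated start, from RefSeq on GRCm38.p6, for Ifit1 (chr19:34640689-34640888, plus strand), Ifit3 (chr19:34583329-34583528, plus strand) and I830012O16Rik (chr19:34607757-34607956, plus strand). Capitals mark the ISRE core, searched as GAAA, any 2 bases and GAAA on either strand, and overlapping matches merge into 1 run.
Ifit1: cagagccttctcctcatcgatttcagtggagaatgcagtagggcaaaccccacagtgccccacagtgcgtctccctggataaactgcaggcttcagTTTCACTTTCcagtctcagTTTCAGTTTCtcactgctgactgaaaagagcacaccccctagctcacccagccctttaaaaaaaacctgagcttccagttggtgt
Ifit3: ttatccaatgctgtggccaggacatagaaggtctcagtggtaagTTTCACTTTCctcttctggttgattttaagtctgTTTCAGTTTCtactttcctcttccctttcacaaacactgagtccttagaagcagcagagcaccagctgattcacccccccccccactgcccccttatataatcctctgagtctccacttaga
I830012O16Rik: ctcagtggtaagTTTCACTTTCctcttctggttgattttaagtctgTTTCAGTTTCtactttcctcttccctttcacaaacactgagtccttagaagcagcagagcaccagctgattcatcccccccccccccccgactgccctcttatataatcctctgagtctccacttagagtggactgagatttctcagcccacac

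Ifit1 has matches that begin 104 and 85 bases before the start, and Ifit3 has them at 156 and 122 bases. In I830012O16Rik they begin at 188 and 154 bases, and over the 168 bases that align, gaps left out, the window is 99.4% identical to that of Ifit3. Ifit2, also lower, has no match in its windows.

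The IFIT genes stand side by side on chromosome 19, and in RefSeq gene order the stretch goes on to their neighbours. From Ch25h through Lipa, Ifit2, Ifit3, Gm14446 (Ifit1bl1), I830012O16Rik and 2010002M12Rik to Ifit1 there are 8 rows. In the library labelled SIRPα-KO, 7 were lower by 1.5-fold and 5 by 2-fold, against 10.2% and 4.3% of all rows kept. Gm14446 was at 17.3 FPKM in the library labelled SIRPα-KO and 85.6 in WT, a log2 ratio of -2.24. The neighbours outside the family, and with them the ends of the stretch, were picked after their values were seen. Ch25h, which makes an antiviral oxysterol, was at 48.1 FPKM in the library labelled SIRPα-KO and 582 in WT, and the lysosomal lipase gene Lipa at 60.6 (SIRPα-KO label) and 149 (WT). Beyond them, Fas on one side was level at 73.1 FPKM in the library labelled SIRPα-KO and 78.2 in WT, and Pank1 on the other side was at 0.06 FPKM in both.

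**Figure D3:**
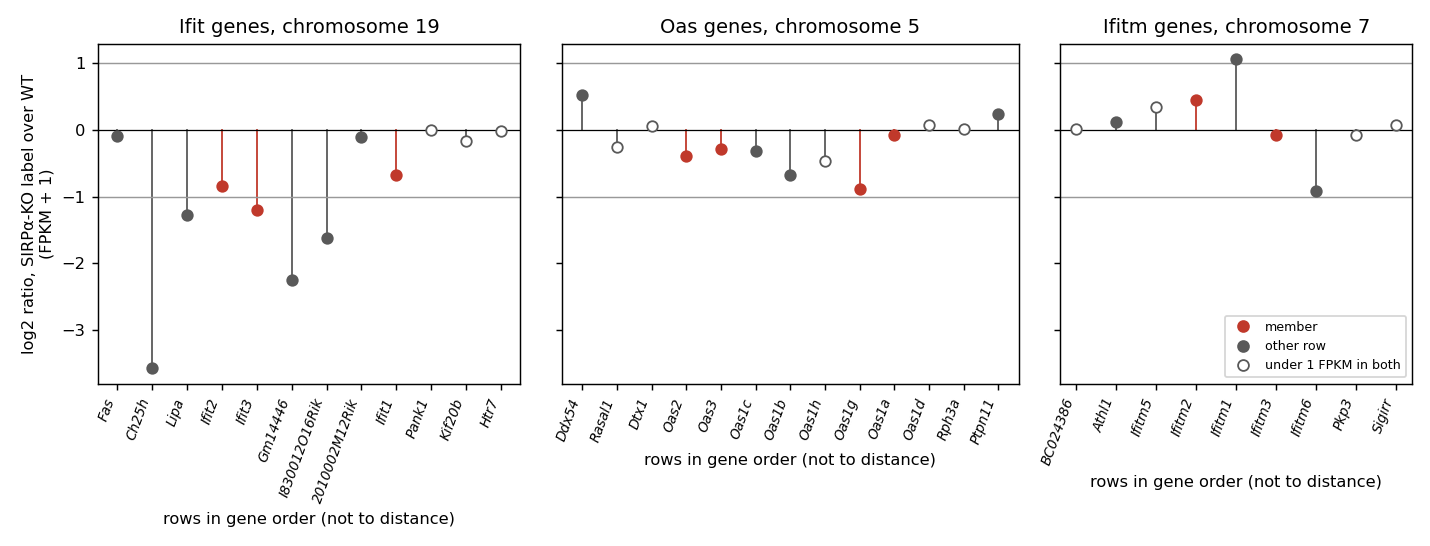
Log2 ratio (SIRPα-KO label over WT, FPKM + 1) of rows in RefSeq gene order around the Ifit, Oas and Ifitm genes, evenly spaced and not drawn to distance; red marks members, grey other rows, open circles rows under 1 FPKM in both libraries, and horizontal lines 2-fold. Low ratios run from Ch25h (-3.57) to Ifit1 (-0.67) on chromosome 19, whereas the Ifitm genes on chromosome 7 go both ways.

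The OAS enzymes sense double-stranded RNA and make oligoadenylates, second messengers that lead to the decay of RNA in infected cells. The 6 members of the family here include the OAS-like genes Oasl1 and Oasl2. Of the 6, Oasl1 and Oas1g were lower by 1.5-fold. Oasl1, which in mouse holds back the translation of Irf7, was at 495 FPKM in the library labelled SIRPα-KO and 849 in WT, a log2 ratio of -0.78. Its neighbour Oasl2 was level, at 515 FPKM in the library labelled SIRPα-KO and 513 in WT. Oas2 was at 113 FPKM in the library labelled SIRPα-KO and 149 in WT, and Oas3, the form that prefers long RNA, at 156 (SIRPα-KO label) and 190 (WT). These were log2 ratios of -0.40 and -0.28, short of 1.5-fold.

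Oas1g was at 72.6 FPKM in the library labelled SIRPα-KO and 134 in WT, a log2 ratio of -0.88. Its near copy Oas1a was at 256 FPKM in the library labelled SIRPα-KO and 268 in WT, a log2 ratio of -0.07. Of the words of Oas1a, 57.6% also occur in Oas1g, so how the authors assigned shared reads bears on both values. Oas1g stood at 0.28 of the level of Oas1a in the library labelled SIRPα-KO and at 0.50 in WT. Summed, the 2 rows gave 329 FPKM in the library labelled SIRPα-KO and 403 in WT, a log2 ratio of -0.29 that is short of 1.5-fold. The lower level of Oas1g is therefore uncertain.

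The promoters of this pair, whose difference in level is uncertain, are shown because they have nearly the same sequence. They are the 200 bases before the start of Oas1g (chr5:120887614-120887813, minus strand) and of Oas1a (chr5:120907526-120907725, minus strand), from RefSeq on GRCm38.p6, with ISRE letters in capitals.
Oas1g: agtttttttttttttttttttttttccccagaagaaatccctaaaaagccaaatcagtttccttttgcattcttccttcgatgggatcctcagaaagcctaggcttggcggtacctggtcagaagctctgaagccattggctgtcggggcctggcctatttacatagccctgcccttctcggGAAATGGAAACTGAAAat
Oas1a: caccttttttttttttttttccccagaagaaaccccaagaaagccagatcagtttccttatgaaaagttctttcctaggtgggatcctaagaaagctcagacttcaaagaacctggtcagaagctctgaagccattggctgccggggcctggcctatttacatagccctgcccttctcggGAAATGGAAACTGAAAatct

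Over 191 aligned bases, gaps left out, the windows were 89.5% identical. Each holds a pair of overlapping matches close to the start, beginning 18 and 12 bases before it in Oas1g and 20 and 14 bases before it in Oas1a. The relatives in the same cluster that are not on the list were at low levels in both libraries. Oas1b was at 16.7 FPKM in the library labelled SIRPα-KO and 27.1 in WT, a log2 ratio of -0.67 that is past 1.5-fold.

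The Mx proteins are dynamin-like GTPases that trap viral nucleoproteins. Many laboratory mouse strains, C57BL/6 among them, carry defective Mx genes, so a transcript level does not stand for a working protein. Mx1 was level at 793 FPKM in the library labelled SIRPα-KO and 769 in WT. Mx2 was at 100.1 FPKM in the library labelled SIRPα-KO and 139 in WT, a log2 ratio of -0.47. Both were short of 1.5-fold.

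Isg15 encodes a ubiquitin-like protein that is attached to viral and host proteins. Its level was 1212 FPKM in the library labelled SIRPα-KO and 1582 in WT, a log2 ratio of -0.38. Usp18, which removes Isg15 from proteins and dampens signalling at the type I receptor, was at 292 FPKM in the library labelled SIRPα-KO and 451 in WT, a log2 ratio of -0.63 and 1.54-fold lower. Herc6, the main Isg15 ligase in mouse, was level at 120 FPKM in the library labelled SIRPα-KO and 118 in WT. Among the other enzymes of the system, the activating enzyme Uba7 was at 61.9 FPKM in the library labelled SIRPα-KO and 93.0 in WT, and the conjugating enzyme Ube2l6 at 230 (SIRPα-KO label) and 186 (WT). With 1 added to each value both were short of 1.5-fold, in opposite directions, Uba7 only just at 1.49-fold lower.

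Enzymes that act on nucleotides or nucleic acids held 3 of the 9 members past 1.5-fold. Rsad2 (viperin) makes a chain-terminating nucleotide from CTP, and it was at 1401 FPKM in the library labelled SIRPα-KO and 2177 in WT. Cmpk2, a mitochondrial nucleotide kinase, was at 841 FPKM in the library labelled SIRPα-KO and 1315 in WT. These genes are neighbours on chromosome 12, and their log2 ratios of -0.64 each were nearly the same. The exonuclease gene Isg20 was at 158 FPKM in the library labelled SIRPα-KO and 249 in WT, a log2 ratio of -0.66. Samhd1, which hydrolyses deoxynucleotides and so starves viral replication, went the other way at 1163 FPKM in the library labelled SIRPα-KO and 986 in WT, a log2 ratio of 0.24 that is short of 1.5-fold.

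The promoter windows of Rsad2 (chr12:26456453-26456652, minus strand) and Isg15 (chr4:156200819-156201018, minus strand) are shown to set a single ISRE core beside an array of them. They are again the 200 bases before the start on GRCm38.p6.
Rsad2: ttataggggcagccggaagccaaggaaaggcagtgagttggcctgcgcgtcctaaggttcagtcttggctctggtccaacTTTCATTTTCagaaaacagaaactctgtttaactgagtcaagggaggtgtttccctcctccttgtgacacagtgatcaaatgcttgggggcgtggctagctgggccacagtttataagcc
Isg15: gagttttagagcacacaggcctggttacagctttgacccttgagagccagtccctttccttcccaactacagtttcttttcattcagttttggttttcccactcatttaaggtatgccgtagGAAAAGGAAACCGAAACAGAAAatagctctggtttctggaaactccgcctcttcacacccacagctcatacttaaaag

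Rsad2 has 1 match, which begins 120 bases before the start, and Isg15 has 3 that overlap, at 78, 72 and 66 bases. Rsad2 was past 1.5-fold and Isg15 was not.

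The genes for the double-stranded RNA kinase and the RNA editor were both above their WT values by less than 1.5-fold. Eif2ak2 (PKR), which stops translation in infected cells, was at 134 FPKM in the library labelled SIRPα-KO and 105 in WT, a log2 ratio of 0.35. Another row of chromosome 17, Gm6548, was at 67.4 FPKM in the library labelled SIRPα-KO and 45.7 in WT. Eif2ak2 shared 0% of its words with any other gene in the transcripts compared. No shared sequence between Eif2ak2 and Gm6548 was shown, and whether reads were divided between them was not tested. Adar, which edits adenosine in double-stranded RNA and restrains the sensing of the cell's own RNA, was at 91.3 FPKM in the library labelled SIRPα-KO and 83.5 in WT.

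The membrane restriction factors went both ways, and none was past 1.5-fold. Ifitm3, which blocks the fusion of viruses in endosomes, was the most abundant member in the library labelled SIRPα-KO, at 1720 FPKM against 1807 in WT. Ifitm2 was at 852 FPKM in the library labelled SIRPα-KO and 623 in WT, and its log2 ratio of 0.45 was the highest of the 35. Bst2 (tetherin), which holds budding virions at the cell surface, was at 424 FPKM in the library labelled SIRPα-KO and 583 in WT, a log2 ratio of -0.46. Next to Ifitm2 and Ifitm3 on chromosome 7, Ifitm1 was at 40.5 FPKM in the library labelled SIRPα-KO and 19.0 in WT, higher by 2.08-fold, and Ifitm6 was at 5.6 (SIRPα-KO label) and 11.4 (WT).

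PARP enzymes attach ADP-ribose to proteins, and Dtx3l is the ubiquitin ligase that forms a complex with Parp9. Parp14 was at 538 FPKM in the library labelled SIRPα-KO and 413 in WT, a log2 ratio of 0.38. Parp9 was at 153 FPKM in the library labelled SIRPα-KO and 140.4 in WT, and Dtx3l, its neighbour on chromosome 16, at 138 (SIRPα-KO label) and 124 (WT). Parp12 was level at 208 FPKM in the library labelled SIRPα-KO and 205 in WT. All 4 ratios were above 0, although that of Parp12 turned negative when the libraries were rescaled (-0.01 and -0.03), and the group's median of 0.14 stayed above 0 at 0.10 and 0.09. No other role group of 3 or more members lay wholly on the higher side.

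Sp100 and Daxx, proteins of nuclear bodies that silence incoming viral genomes, were level. Sp100 was at 338 FPKM in the library labelled SIRPα-KO and 340 in WT, and Daxx at 199 (SIRPα-KO label) and 204 (WT). Lgals3bp, a secreted glycoprotein that binds galectins, was at 642 FPKM in the library labelled SIRPα-KO and 819 in WT, and the galectin gene Lgals9 at 533 (SIRPα-KO label) and 559 (WT). The last 4 members all lay below their WT values and short of 1.5-fold. They were Ifi44 (135 FPKM in the library labelled SIRPα-KO, 188 in WT), Xaf1, which promotes apoptosis (68.7 under the SIRPα-KO label, 77.3 in WT), the chaperone gene Rtp4 (241 under the SIRPα-KO label, 261 in WT) and Ifi35 (153 under the SIRPα-KO label, 174 in WT).

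The order of the members changed little between the libraries. Across the 35 members the log2 levels had a Pearson correlation of 0.96 and a Spearman correlation of 0.95, a description over genes of 2 libraries. In the library labelled SIRPα-KO the highest were Ifitm3, Ifit2, Rsad2, Isg15 and Samhd1, and in WT they were Ifit2, Rsad2, Ifitm3, Isg15 and Cmpk2. The ratio was only weakly related to abundance, with a Pearson correlation of -0.23 between log2 mean level and log2 ratio.

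**Figure D4:**
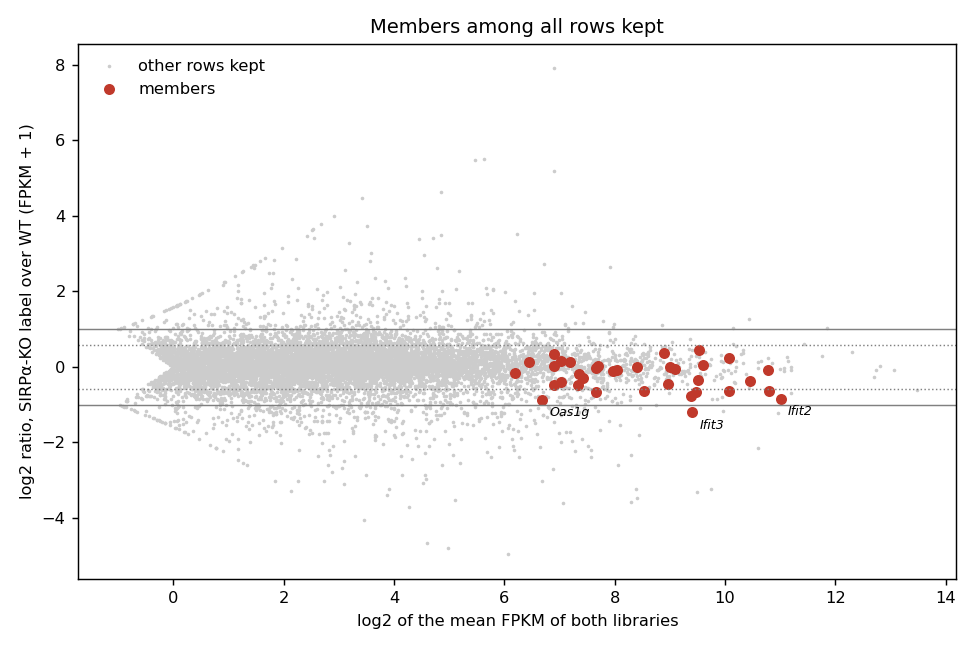
Log2 ratio (SIRPα-KO label over WT, FPKM + 1) against the log2 of the mean FPKM of both libraries for all rows kept (grey) and the members (red); solid lines mark 2-fold and dotted lines 1.5-fold. The members lie at the abundant end, and of them only Ifit3 (-1.20) lies past the lower solid line.

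The promoter table held at least 1 window (250 bases before to 50 after a start) for 28 of the 35 members. The ISRE core, GAAA, any 2 bases and GAAA, was in the windows of 12 members, or 42.9%, against 3.99% of all 27025 genes in the table. The 12 members with it had a median log2 ratio of -0.33 and 4 lower by 1.5-fold. The 16 members without it had a median of -0.10 and 4 lower by 1.5-fold. The GAS core, TTC, any 3 bases and GAA, was in windows of 9 members (32.1%, against 9.55% of all genes), with a median of -0.07, against -0.28 for the 19 without. A loose form of the NF-κB element, GGGA, any 4 bases and CC, was in windows of 10 members (35.7%, against 22.9% of all genes), with a median of -0.12, against -0.23 for the 18 without. Both strands were searched, matches of different elements were allowed to overlap, and a match describes letters, not binding.

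Genes of the pathway upstream of the effectors were mostly level. Of 27 such rows kept, 0 were past 2-fold in either direction, 1 was higher and 1 lower by 1.5-fold, and the median log2 ratio was -0.07. Over all rows kept, 3.43% were higher and 4.3% lower by 2-fold, and 10.9% higher and 10.2% lower by 1.5-fold. Ifnb1, the interferon-β gene, was at 5.29 FPKM in the library labelled SIRPα-KO and 3.93 in WT, and the other 4 ligand rows were under 0.5 FPKM in both. The log2 ratio of Ifnb1, 0.35, was about as large as its counting error of 0.33. It had an estimated 44 reads (SIRPα-KO label) and 33 (WT). The receptor gene Ifnar2 was at 80.5 FPKM in the library labelled SIRPα-KO and 115.5 in WT, and Ifnar1 at 36.3 (SIRPα-KO label) and 53.8 (WT), log2 ratios of -0.52 and -0.56. Irf7, the most abundant regulator of the list, was level at 1176 FPKM in the library labelled SIRPα-KO and 1182 in WT. Stat2 was at 209 FPKM in the library labelled SIRPα-KO and 219 in WT, and Irf9 at 35.2 (SIRPα-KO label) and 37.1 (WT). The row past 1.5-fold on the lower side was the feedback gene Socs3, at 184 FPKM in the library labelled SIRPα-KO and 279 in WT. On the higher side it was the ubiquitin-conjugating enzyme gene Ube2e1, at 166 FPKM (SIRPα-KO label) and 98.4 (WT). Uba7, at 1.49-fold lower, was only just short of the 1.5-fold limit. Ifnb1, Ifnar1, Ifnar2, Stat2, Irf9, Socs3, Ube2e1, Ube2l6, Uba7, Oas1b and Ifitm6 were named after their values were seen.

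Relatives of the members that are not on the list also went both ways. Of 32 kept, 2 were lower by 2-fold, both in the Ifit cluster, and 1 was higher, Ifitm1. At 1.5-fold 7 were lower and 2 higher, and the median was -0.16. Of all rows kept, 4.3% were lower and 3.43% higher by 2-fold, and 10.2% lower and 10.9% higher by 1.5-fold. Lgals3, the most abundant of them, was at 867 FPKM in the library labelled SIRPα-KO and 837 in WT.

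Other interferon-induced families showed other patterns in the same pair of libraries. Of 11 guanylate-binding protein genes 3 were higher by 2-fold and 0 lower, with a median log2 ratio of 0.34. The shares at 2-fold among all rows kept were 3.43% higher and 4.3% lower. Gbp2 was at 4938 FPKM in the library labelled SIRPα-KO and 2417 in WT, Gbp8 at 13.5 (SIRPα-KO label) and 5.3 (WT), and Gbp1 at 22.2 (SIRPα-KO label) and 1.84 (WT). The 9 immunity-related GTPase genes had a median of 0.14 with 0 past 2-fold, and Iigp1, the most abundant, was at 1365 FPKM in the library labelled SIRPα-KO and 898 in WT. Of 8 Schlafen genes 2 were higher by 2-fold (Slfn9 and Slfn10-ps) and 2 lower (Slfn4 and Slfn8), with Slfn2 at 1122 FPKM in the library labelled SIRPα-KO and 969 in WT. With 1 library per genotype the difference between these families and the antiviral effectors could not be tested.

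Both libraries had the transcripts of macrophages. The 7 macrophage marker rows summed to 9873 FPKM in the library labelled SIRPα-KO and 9989 in WT, and none was at 0 in either. Most of each sum was Lyz2, at 7208 FPKM in the library labelled SIRPα-KO and 7106 in WT. Of the 7 rows, 2 were lower by 1.5-fold and 0 higher. The M-CSF receptor gene Csf1r was lower by 2-fold, at 109.8 FPKM in the library labelled SIRPα-KO and 247.6 in WT. The other was Cd14, at 163.8 (SIRPα-KO label) and 290.2 (WT). For the marker counts given here, 4.3% of all rows kept were lower and 3.43% higher by 2-fold. At 1.5-fold, 10.2% were lower and 10.9% higher. The 7 neutrophil marker rows summed to 192 FPKM in the library labelled SIRPα-KO and 418 in WT, with 4 of 6 kept rows lower by 2-fold. Retnlg, the row not kept, was at 0 in the library labelled SIRPα-KO and only 0.46 FPKM in WT. Among plasmacytoid dendritic cell markers 3 of 7 kept rows were lower by 2-fold, and the defining gene Siglech was at 1.11 FPKM in the library labelled SIRPα-KO and 3.03 in WT. The list summed to 49.4 FPKM in the library labelled SIRPα-KO and 54.5 in WT, and most of that was Tcf4, which went the other way at 40.4 FPKM in the library labelled SIRPα-KO and 31.5 in WT. B cell markers summed to 2.47 FPKM in the library labelled SIRPα-KO and 5.91 in WT, and T and NK cell markers to 0.85 (SIRPα-KO label) and 0.11 (WT), with Cd3g at 0 in both. Conventional dendritic cell markers summed to 48.0 FPKM in the library labelled SIRPα-KO and 43.4 in WT, but 3 of 5 kept rows were past 2-fold. Ccr7 was higher, at 23.8 FPKM in the library labelled SIRPα-KO and 6.93 in WT, as was Dpp4, at 4.95 (SIRPα-KO label) and 1.32 (WT). Itgax was lower, at 12.1 (SIRPα-KO label) and 27.7 (WT). Retnlg, Siglech, Tcf4, Ccr7, Dpp4, Itgax, Cd3g, Csf1r, Lyz2 and Cd14 were named after their values were seen. The part of these cells in the result was not tested. In a bulk library, fewer cells of a type and less RNA per cell cannot be told apart.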

How the data were processed

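RNA sequencing values of 2 libraries, 1 per genotype, were used. Each deposited table holds 1 value per gene, taken as FPKM, a unit that the authors do not name in the headers and that was inferred from the values. The submitters' processing notes name mm9, R 3.3.3 and DESeq2 without a role. Not given in the sources used here were the aligner, the counting program and whether strand was used. FPKM values depend on transcript length, on a few very abundant genes and on how reads of near-identical copies were assigned.

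The members and lists, and the role groups, were chosen with earlier results of these data known. Ratios were computed over the whole table with Python 3.11.15 and pandas 2.3.3 on log2(FPKM + 1). Rows were kept where either library reached 1 FPKM, and limits of 2-fold and 1.5-fold were used. With 1 library per group no test was made. The ratio step was tested on simulated data. Named genes were the members, Sirpa, genes of the pathway, paralog and comparison lists that were past 2-fold or most abundant in their list, and rows sharing sequence with a member. Outside this rule, Xist, Eif2s3y, Ddx3y, Gm6548 and the neighbours of the Ifit genes (Ch25h, Lipa, Fas and Pank1) were also named. So were the genes stated above to be named after their values were seen.

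Depth was estimated from low values of genes with 1 transcript and the lengths in GENCODE M21, where 65.9% of 1291 values (SIRPα-KO label) and 67.8% of 1298 (WT) lay within 0.15 of a whole read. Shared 50-base words came from the same transcripts, in which Mx1 was not compared. Promoter sequences and gene order came from RefSeq on GRCm38.p6, which matched 16211 of 16263 rows by gene number. This is a later build than mm9, and the tables hold no coordinates. Alternatives were another pseudocount, filters, scalings and fold limits, and the treatment of rows that share sequence. Some genes of the lists are not reported here.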

Additional observations from a re-analysis of the deposited data

How the results depend on the processing

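The count of 1 member lower by 2-fold kept its value with a pseudocount of 0.1, with no filter or a minimum of 5 FPKM, with both other scalings and with rows that share sequence summed. The filter settings could not change any member, since the lowest member value was 68.7 FPKM. The count was 9 at a 1.5-fold limit and 0 at a 3-fold limit. It was also 0 when the 3 members that share at least 20% of their words with another gene were left out, since Ifit3 is one of them. The count of higher members was 0 under all these alternatives. The median log2 ratio of the members lay between -0.22 and -0.14 over them. The 9 members lower by 1.5-fold were the same genes with the other pseudocount and scalings; 8 remained with rows summed (Oas1g then merged with Oas1a) and 7 with such members left out. Of 241 recomputed ratios of single members, 7 changed sign, in Oasl2, Mx1, Herc6 and Parp12, all of which lay within 0.05 of 0. The 241 include ratios that their setting could not change, such as those under the filters. The other scalings moved the median of all rows kept by -0.03 and -0.04. No paired analysis was possible because each group has 1 library. Depth does not limit the members, but without replicates the spread between mice is unknown.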
